A study of Mus musculus with 192 samples.

Results

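Cxcl12, its 2 receptors Cxcr4 and Cxcr7, and the peptidase that the panel lists as Dppiv were followed through single wound cells. These 4 genes were picked by their names in the table of 96 assays for 95 genes, and they are read by 5 assays, since the panel holds 2 for Cxcl12 (Mm00445552_m1 and Mm00457276_m1), which were kept apart. Cxcr4 is read by Mm01292123_m1, Cxcr7 (current symbol Ackr3) by Mm00432610_m1 and Dppiv by Mm00494538_m1. The cells came from mice in parabiosis, in which a wild-type (WT) recipient or a recipient lacking Cxcl12 in its endothelium (EKO) shared its circulation with a donor positive for green fluorescent protein (GFP). Cells of dorsal wounds were sorted as lineage-negative and GFP-positive, so WT and EKO name the recipient and not the sorted cell, and the sort shows which animal a cell came from only as far as its gate does. Each genotype gave 96 cells, 48 in a set called A and 48 in a set called B. Not given in the sources used here were the driver of the endothelial deletion, the gate's lineage antigens, the mice's age and number, and the time after wounding.

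Cxcl12 (stromal cell-derived factor 1) is a chemokine made by stromal and endothelial cells that holds blood progenitors in marrow and draws them into injured tissue. Cxcr4 is the G protein-coupled receptor through which it drives migration. Cxcr7 is an atypical receptor that binds and internalises the same ligand without G protein signalling, and so lowers the amount outside the cell. Dipeptidyl peptidase IV, the protein that the name Dppiv stands for (also Dpp4 or CD26), is a surface protease that clips the amino terminus of Cxcl12 and thereby removes its activity on Cxcr4. In skin it also marks a lineage of dermal fibroblasts, and in blood it is found on lymphoid and some progenitor cells.

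Each value is a cycle threshold (Ct), the amplification cycle at which a reaction crosses its detection limit, so that a lower Ct stands for more template, and 40 marks no detection. A Ct was compared only within an assay, because efficiencies differ between assays. Of these cells, 170 detected at least 10 of the 96 assays (93 WT, 77 EKO), and those form the base of every share unless another is named. Since the labels give no animal, a genotype is 1 sample and nothing was tested: shares carry exact (Clopper-Pearson) and differences Newcombe 95% intervals, both for counting error only, and medians carry SDs over cells. Within a set, cells 1 to 48 are WT and 49 to 96 EKO, so genotype and position cannot be told apart.

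The 170 cells were divided by 2 genes outside the axis. Collagen-high cells (46) had Col1a1, a chain of type I collagen, at a Ct below 16. Their highest Col1a1 Ct was 14.3 and the lowest in any other of the 170 cells was 17.04, with none between. Of the other cells, 71 detected Ptprc, which encodes the leukocyte antigen CD45, and 53 detected neither. All 46 collagen-high cells detected the mesenchymal genes Col1a2, Col3a1 and Pdgfra and 45 detected Thy1, but 19 detected Acta2 and 19 Pdgfrb. Of the 71 Ptprc cells 2 detected Pdgfra, while 26 detected Col1a2 and 35 Col3a1. Those collagen signals were late, with median Ct values of 21.06 and 20.07 against 10.88 and 9.32 in collagen-high cells. Of the endothelial genes, collagen-high cells detected Pecam1 in 20 cases, Tie2 in 15, Kdr in 13, Flt-1 in 3, Cdh5 in 2 and Tie1 in 0. In the same order, Ptprc cells detected them in 23, 4, 6, 7, 6 and 4 cases. Cells of neither class did so in 7, 4, 4, 4, 5 and 4. The median Ct of Cdh5 was 21.01 in collagen-high cells, 15.5 in Ptprc cells and 14.4 in neither class. Where collagen-high cells detected the gene, only Pecam1 in Ptprc cells had a later median (19.2 against 18.7) than they had. The collagen-high class does not exclude leukocyte transcript: 31 of its 46 cells detected Ptprc and 22 detected Cd48, another leukocyte gene, while 0 detected the macrophage gene Emr1. Of the other haematopoietic genes, Kit was detected in 4 of the 46, Gata2 in 2 and Itgam in 1. The 71 Ptprc cells detected Cd48 in 42 cases, Kit in 21, Emr1 in 13, Itgam in 10 and Gata2 in 2. The classes also differed in yield. A median of 52 assays was detected per collagen-high cell, none of which had fewer than 36, against 28 per Ptprc cell and 15 per cell of neither class. Shares were therefore repeated among the 95 cells with at least 24 assays (46 collagen-high, 42 Ptprc, 7 neither) and, between the 2 named classes, among cells with at least 36.

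The members divided the cells in different ways. Cxcl12 Mm00457276_m1 and Cxcr7 were found mainly in collagen-high cells, Cxcr4 mainly in cells that detected Ptprc, and Dppiv in both, while Cxcl12 Mm00445552_m1 was detected in every cell. Cxcr7 was detected in 44 of 46 collagen-high cells (95.7%, 85.2 to 99.5%) and Cxcr4 in 35 of 71 Ptprc cells (49.3%, 37.2 to 61.4%). Of the 94 assays other than Col1a1 and Ptprc, 44.7% had a share at least 25 points higher in collagen-high than in Ptprc cells and 0% a share at least 25 points lower. Among cells with at least 24 assays these were 34% and 6.38%.

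**Figure D1:**
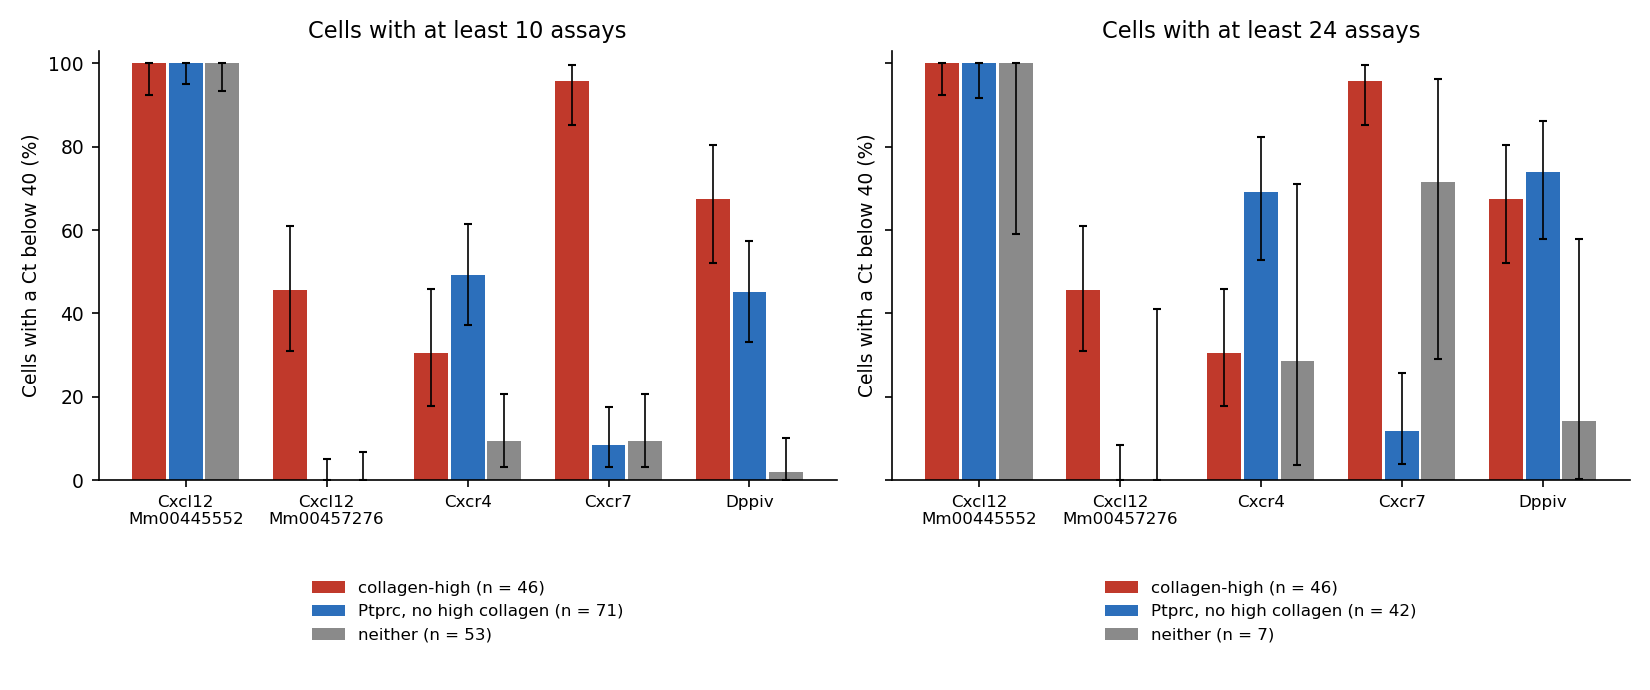
Share of cells with a Ct below 40 (percent, y axis) for the 5 assays (x axis) in collagen-high, Ptprc-detecting and remaining cells, with at least 10 (left) or 24 (right) assays per cell, and exact 95% intervals as error bars. Cxcr7 stands at 95.7% in collagen-high cells in both panels, while the Cxcr4 share of Ptprc cells goes from 49.3% on the left to 69.05% on the right.

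The first Cxcl12 assay, Mm00445552_m1, was detected in all 96 cells of each genotype, including the 22 that detected fewer than 10 assays. Its Ct ran from 12.4 to 22.2 with a median of 17.8. Outside the collagen-high class, in 146 cells, the median was 17.97 ± 0.72 (SD), and in the 22 cells of lowest yield it was 17.8. The assay therefore gave nearly the same Ct in most cells. Among Ptprc cells its SD of 0.57 cycles was the smallest of the 41 assays detected in at least 20 of them, below the 0.77 cycles of Rn18s, the 18S ribosomal RNA, and the median of 2.09. In cells under 24 assays its median Ct was 0.36 cycles later than in the others, where the median shift over 28 assays was 2.84 cycles. The 4 assays with a lower signed shift were all earlier in cells under 24 assays, by -2.52 to -0.10 cycles. These values do not show whether the late, even signal is Cxcl12 transcript in each cell, and its source was not tested.

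Collagen-high cells stood apart in this assay. Their median Ct was 16.1 ± 1.73 (SD, 46 cells), with 12.4 as the lowest and 19.2 as the highest. In 24 of the 46 the Ct lay below 16.12, the lowest of the other 146 cells, and in 35 it lay below their 5th percentile of 17.001. The difference of the medians was -1.89 cycles, 3.70-fold more template if every cycle doubles it. The remaining 11 collagen-high cells lay at or above that percentile, none later than the latest of the other cells.

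The genes whose Ct moved most closely with that of Cxcl12 Mm00445552_m1 over co-detecting cells were all fibrillar collagen chains. Spearman's rho was 0.66 with Col1a2 (93 cells), 0.63 with Col1a1 (99 cells) and 0.59 with Col3a1 (111 cells). Within the collagen-high class, where all 3 genes were detected in 46 cells, rho was 0.18, 0.16 and 0.09. Within Ptprc cells it was 0.56 (26 cells), -0.02 (31 cells) and 0.27 (35 cells). The pooled values thus include the distance between the classes. The points are cells of both genotypes and sets that differ in yield, and these are descriptions with no p-value.

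The second Cxcl12 assay, Mm00457276_m1, was detected in 21 of the 170 cells (12.4%, 7.81 to 18.3%), and all 21 were collagen-high. That is 21 of 46 (45.7%, 30.9 to 60.99%), against 0 of 71 Ptprc cells, which allows up to 4.23%, and 0 of 53 cells of neither class. It reached 52.2% of collagen-high cells in set A (12 of 23) and 39.1% in set B (9 of 23). A twenty-second cell, one of the EKO cells left out for low yield, detected it at a Ct of 22.3. The assays with the most similar detection over the 95 cells of at least 24 assays were Pdgfra, a receptor of mesenchymal cells (phi 0.52), the adhesion molecule Vcam1 (0.49) and the signalling protein Wnt5a (0.49), where phi is the correlation of 2 yes-or-no readouts. All 21 detecting cells were among the 49 that detected Pdgfra.

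The second Cxcl12 assay was detected more often where the first was early. In the 21 collagen-high cells that detected the second assay, the first had a median Ct of 15.05 ± 1.76 (SD), and in the other 25 it had 16.4 ± 1.48. The difference was -1.53 cycles (set A) and -1.36 (set B), and the ranges overlapped. A Ct below 16 in the first assay was found in 15 of the 21 and in 7 of the 25. Among the 21, rho between the assays was 0.36 over both sets, 0.22 in set A (12 cells) and 0.83 in set B (9 cells).

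**Figure D2:**
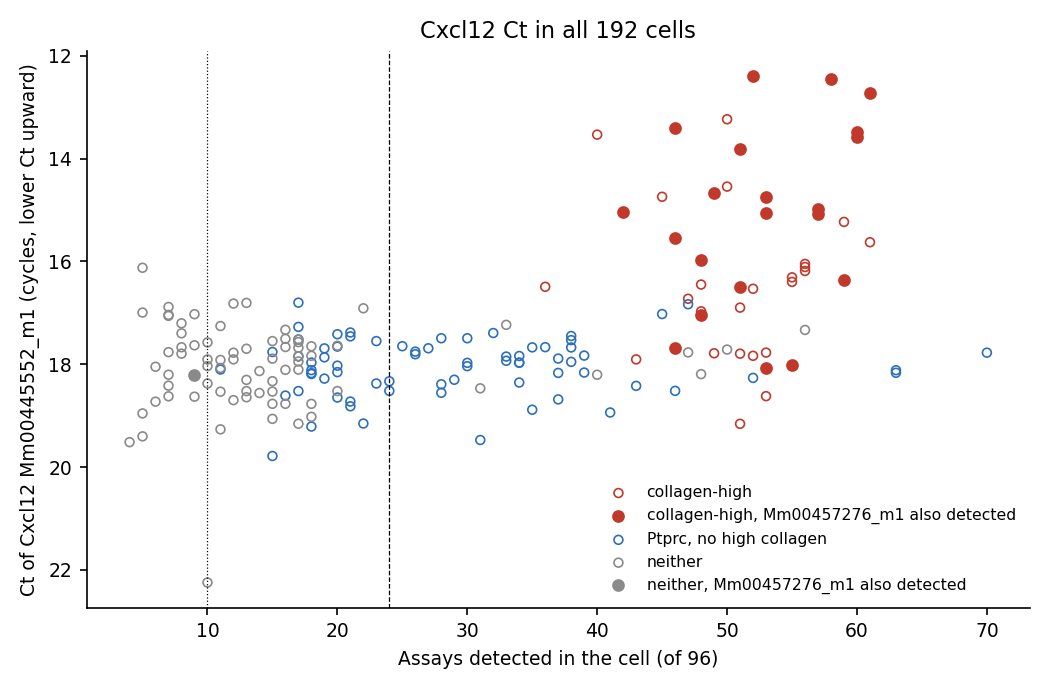
Ct of Cxcl12 Mm00445552_m1 (y axis, cycles, lower values upward) against the number of assays detected (x axis) in every cell of both genotypes, coloured by class and filled where Mm00457276_m1 was detected too, with lines at 10 and 24 assays. Cells outside the collagen-high class lie near 17.97 over the whole range of yield, and 24 collagen-high cells lie below all of them.

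The Ct of the second assay depended on the set. In set A it ran from 17.1 to 22.001 with a median of 20.2 (12 cells), and in set B from 9.24 to 18.4 with a median of 16.9 (9 cells). Set B was thus 3.27 cycles earlier among collagen-high cells, the third most negative shift of 65 assays, whose median shift was -0.51. The first assay shifted the other way in the same cells, by 0.48 cycles. Levels of the second assay pooled over the sets are therefore not compared between genotypes without the set.

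Cxcr4 was detected in 54 of the 170 cells (31.8%, 24.8 to 39.3%), at Ct values from 17 to 29.8 with a median of 22.4. Of these 54 cells 48 also detected Ptprc. Over all 102 Ptprc-detecting cells the share was 47.1% (37.1 to 57.2%). Without the collagen-high cells it was 49.3% of 71 cells, with 21 of 42 (set A) and 14 of 29 (set B). The share was higher at higher yield: 69.05% of the 42 Ptprc cells with at least 24 assays detected Cxcr4 (52.9 to 82.4%), and 16 of the 19 with at least 36 (84.2%, 60.4 to 96.6%).

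Inside the collagen-high class Cxcr4 followed Ptprc. It was detected in 14 of 46 cells (30.4%, 17.7 to 45.8%), of which 13 were among the 31 cells with Ptprc (41.9%, 24.6 to 60.9%) and 1 among the 15 without (6.67%, 0.17 to 31.9%). Of the cells in neither class 5 of 53 had Cxcr4 (9.43%, 3.13 to 20.7%). Collagen-high minus Ptprc, the share differed by -18.9 points (-34.9 to -0.59) at 10 assays, -38.6 (-55.05 to -17.8) at 24 and -53.8 (-69.1 to -27.7) at 36. At each yield the receptor was less frequent in collagen-high cells in both sets, and at 24 assays it was among the 6.38% of assays past 25 points in that direction.

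The Ct of Cxcr4 differed widely between the sets. Set A cells lay between 19.6 and 29.8 with a median of 24.5 (29 cells), and set B cells between 17 and 22.6 with a median of 19.8 (25 cells). In set A 25 of the 29 values were later than the latest of set B. Among Ptprc cells the shift was -4.54 cycles (21 and 14 cells), the most negative of 49 assays, and among collagen-high cells -8.43 cycles (5 and 9 cells), the most negative of 65, where the ranges did not overlap. The median shifts of those assays were -0.48 and -0.51, and the most positive were 5.44 and 3.15. Its share of detecting cells did not differ in that way, at 33.3% in set A and 30.1% in set B.

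**Figure D3:**
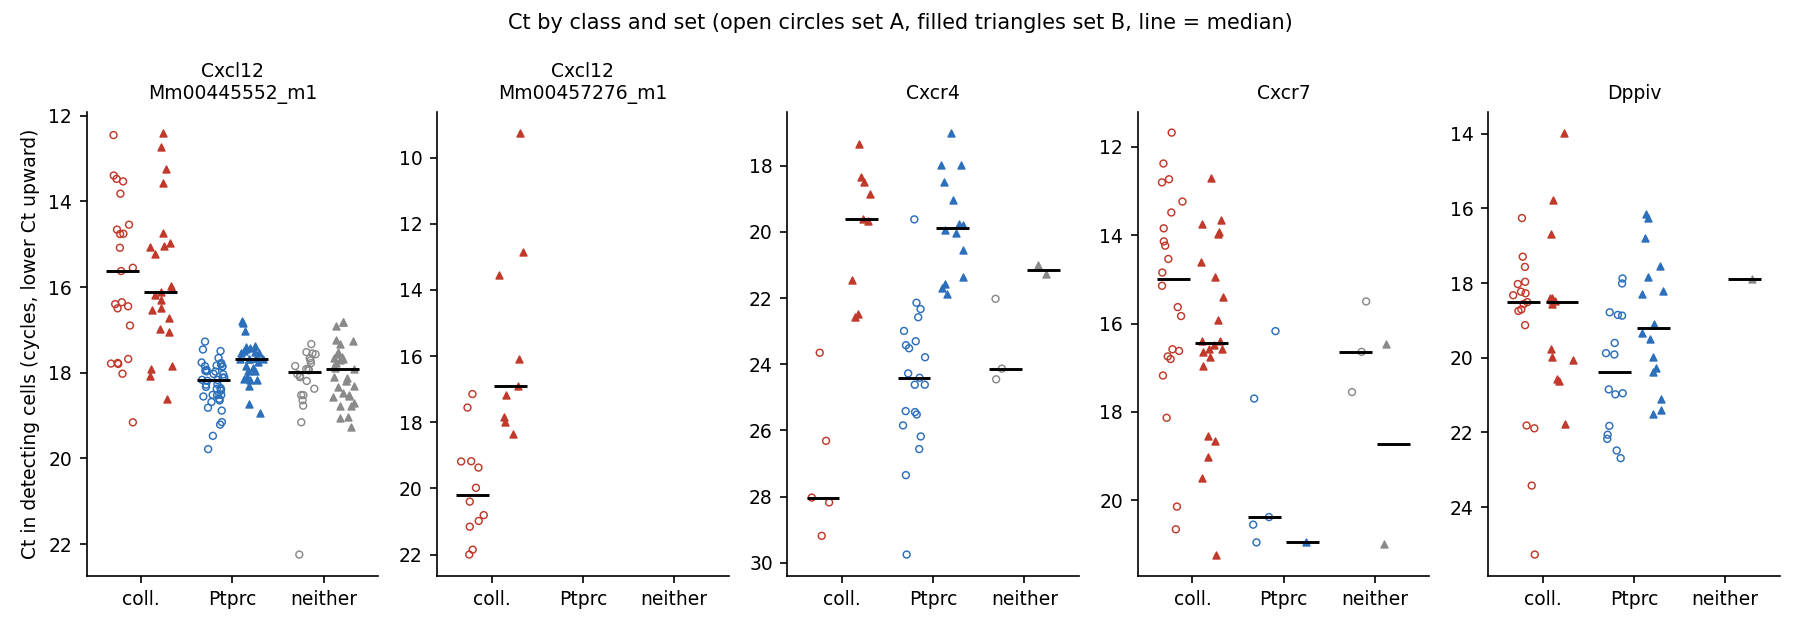
Ct of the 5 assays in the cells that detected them (y axes, cycles, lower values upward, a separate scale per assay) by class (x axis) and set, with each cell as a point and the median as a line. Cxcr4 is displaced by set in both named classes, with medians of 24.4 and 19.9 in Ptprc cells, whereas Cxcl12 Mm00445552_m1 is displaced by class.

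Cxcr7 was detected in 55 of the 170 cells (32.4%, 25.4 to 39.9%), nearly as many as Cxcr4, and 18 of the 55 had Cxcr4 as well. Its Ct ran from 11.7 to 21.2 with a median of 16.5. It was found in 44 of 46 collagen-high cells, 22 of 23 in each set, and in all 15 of those without Ptprc. In Ptprc cells it was found in 6 of 71 (8.45%, 3.17 to 17.5%), so that the classes differed by 87.2 points (73.8 to 92.7), 83.7 points at 24 assays and 79.9 at 36. This is past the 25 points that 44.7% of the assays exceeded.

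The few cells that broke this pattern were described 1 by 1 after their values were seen. The 6 Ptprc cells with Cxcr7 had a median Ct of 20.5 for it, against 15.9 in collagen-high cells, though 1 reached 16.2. None of the 6 detected Pdgfra, and 5 came from set A. Both collagen-high cells without Cxcr7 detected Cxcr4, Dppiv, Ptprc and Pdgfra. A further 5 Cxcr7 cells belonged to neither class. They had 40 to 56 assays and were 5 of the 7 such cells with at least 24, and 1 of the 5 detected Pdgfra. High collagen was thus not shared by every cell with Cxcr7 and a high yield.

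The assays most alike to Cxcr7 over the 95 cells were the metalloproteinase inhibitor Timp1 (phi 0.79), the progenitor and fibroblast surface protein Cd34 (0.76) and Pdgfra (0.73). Cxcr7 was found in 51 of 58 cells with Timp1 (87.9%) and in 3 of 37 without (8.11%). For Cxcr4 the assays most alike were Birc5, the mitotic survival protein survivin (phi 0.42), Mki67, the proliferation antigen Ki-67 (0.39), and Ptprc (0.37). Over all pairs of 64 assays the median phi among these cells was 0.11, with 0.48 as the 95th percentile. The 2 Cxcr4 values for proliferation genes thus lay above the median and below the 95th percentile.

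Within the Ptprc class nearly all cells with a proliferation gene detected Cxcr4. It was found in 19 of 20 cells with Mki67 (95%) and 16 of 51 without (31.4%), a difference of 63.6 points (40.5 to 75.4). With Birc5 it was found in 18 of 19 cells and without in 17 of 52. In set A 11 of 12 Mki67 cells detected Cxcr4, against 10 of 30 without, and in set B 8 of 8 against 6 of 21. The direction was shared by both genotypes, with 12 of 13 against 8 of 23 in EKO and 7 of 7 against 8 of 28 in WT. Yield moved with it, since Mki67 cells had a median of 37 assays and the others 21. Among Ptprc cells with at least 24 assays Cxcr4 was found in 19 of 20 with Mki67 and 10 of 22 without, a difference of 49.5 points (22.3 to 68.5) at medians of 37 and 30 assays. These genes were named for their likeness to Cxcr4 in the same cells, so the differences are descriptions.

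**Figure D4:**
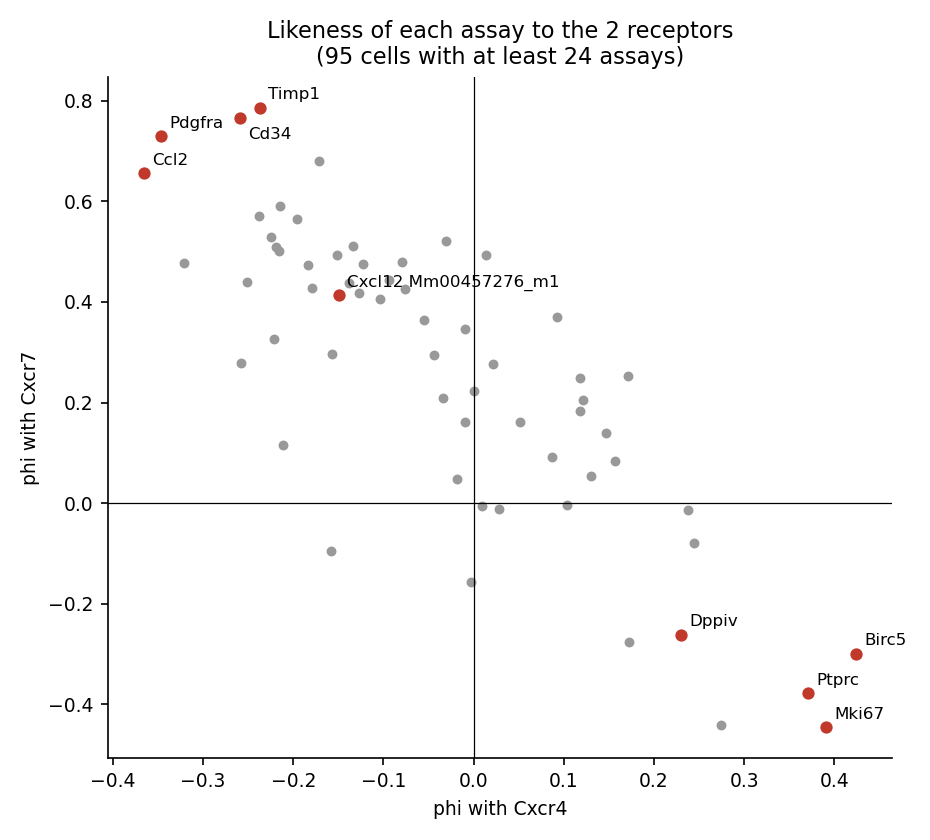
Phi of each of 62 assays with Cxcr4 (x axis) and with Cxcr7 (y axis) over the 95 cells with at least 24 assays, with the named assays marked. Of the 62 points, 37 are negative with Cxcr4 and positive with Cxcr7, among them Timp1, Cd34 and Pdgfra, and 11 the reverse, among them Birc5, Mki67, Ptprc and Dppiv.

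Dppiv was detected in 64 of the 170 cells (37.6%, 30.3 to 45.4%), at Ct values from 13.97 to 25.3 with a median of 18.9. Collagen-high cells detected it in 31 of 46 cases (67.4%, 51.98 to 80.5%) and Ptprc cells in 32 of 71 (45.1%, 33.2 to 57.3%). Of the cells in neither class 1 of 53 had it. The difference between the 2 named classes was 22.3 points at 10 assays but -6.42 (-24.5 to 12.5) at 24 and -11.6 (-30.7 to 13.6) at 36. At 24 and 36 assays no class difference in Dppiv was therefore detectable with this number of cells.

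Dppiv followed Ptprc inside the collagen-high class as Cxcr4 did. It was found in 25 of 31 collagen-high cells with Ptprc (80.6%, 62.5 to 92.6%) and 6 of 15 without (40%, 16.3 to 67.7%). The assays most alike to it over the 95 cells were Ptprc (phi 0.40), Cd48 (0.29) and the receptor Notch2 (0.26). The least alike was Mcam, an adhesion molecule of vessels (-0.43), with Dppiv in 2 of 13 Mcam cells and 61 of 82 others. Within the Ptprc class Dppiv was found in 18 of 20 cells with Mki67 and 14 of 51 without, and in 18 of 20 and 13 of 22 at 24 assays or more. Its Ct in collagen-high cells had a median of 18.5 in both sets.

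Co-detection was counted for each pair of the 4 partly detected assays. Of the 170 cells 70 detected none of them, at a median of 17 assays. The most frequent pattern among the rest was Cxcr4 with Dppiv alone (24 cells). Next came Cxcr7 with Dppiv alone (13 cells), and 5 cells, all collagen-high, detected all 4. Those 5 had 46 to 61 assays and a median Ct of 13.6 in the first Cxcl12 assay, 4 were from EKO recipients and 4 detected Ptprc.

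Cxcr7 was less frequent in cells with Cxcr4 than in those without it once cells of low yield were left out. At 10 assays it was found in 18 of 54 cells with Cxcr4 (33.3%) and 37 of 116 without (31.9%). Among cells with at least 24 assays it was found in 17 of 45 with Cxcr4 (37.8%) and 37 of 50 without (74%), a difference of -36.2 points (-52.4 to -16.3). Inside the collagen-high class all 32 cells without Cxcr4 had Cxcr7, as did 12 of the 14 with it. Among Ptprc cells Cxcr7 was found in 4 of 35 with Cxcr4 and 2 of 36 without, a difference the other way of 5.87 points (-8.48 to 20.9), and at 24 assays the difference was -5.04 points (-32.7 to 14.4). Of the 18 cells with both receptors 12 were collagen-high, 4 were Ptprc cells, all from set A, and 2 were of neither class.

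Dppiv was more frequent in cells with Cxcr4. It was detected in 35 of 54 cells with Cxcr4 (64.8%) and 29 of 116 without (25%), a difference of 39.8 points (23.95 to 53.2). At 24 assays this was 35 of 45 against 28 of 50, 21.8 points (2.75 to 38.5). In Ptprc cells 24 of 35 with Cxcr4 had Dppiv and 8 of 36 without, with 38.1 points (set A) and 59.05 (set B), at medians of 35 and 20.5 assays. Ptprc cells of at least 24 assays had 24 of 29 against 7 of 13, 28.9 points (0.17 to 55.4).

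Of the 21 cells with Cxcl12 Mm00457276_m1 20 had Cxcr7, against 35 of the other 149, and both assays were found mainly in collagen-high cells. Inside that class the shares were 20 of 21 and 24 of 25. Dppiv and Cxcr7 changed sides with yield. With minus without Cxcr7, the Dppiv share differed by 24.98 points at 10 assays and -24.9 (-41.1 to -5.82) at 24. No pair of these 4 assays kept both its sign and an interval that left out 0 in all 4 views (10 assays, 24 assays, collagen-high and Ptprc cells). Pairs with Cxcl12 Mm00457276_m1 could not, since no Ptprc cell detected it. Dppiv with minus without Cxcr4 kept its sign, at 39.8, 21.8, 16.1 and 46.3 points in that order. Its interval in collagen-high cells included 0 (-13.9 to 38.2).

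The comparison of recipients set the cells sorted from wounds of EKO recipients beside those from WT recipients. EKO cells had a median yield of 34 assays and WT cells of 21, so a share higher in EKO came with a higher yield, and the part of yield in it was not tested. Of the 96 assays 20.8% had a share at least 10 points higher in EKO with the same sign in both sets, and 0% were lower by that rule. With at least 24 assays per cell these were 4.17% and 11.5%. Of the 5 member assays 1, Cxcr4, met the rule at 10 assays and 0 at 24, which is close to the share over all assays.

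By role, the first Cxcl12 assay was detected in 100% of both genotypes. The second was detected in 13 of 77 EKO cells (16.9%) and 8 of 93 WT cells (8.60%), with -1.76 points (set A) and 18.8 (set B). The Cxcr4 share was 38.96% in EKO and 25.8% in WT, a difference of 13.2 points (-0.88 to 26.8) that was alike in both sets. For Cxcr7 the difference was 7.33 points (-6.65 to 21.2) and for Dppiv 9.52 (-4.99 to 23.7), with 0.96 points (set A) and 18.5 (set B) for the latter. Every interval of a pooled difference included 0. Counting the 22 cells of low yield as well, of which 19 were EKO, brought Cxcr4 to 6.25 points, Cxcr7 to 1.04 and Dppiv to 2.08. Weighted over terciles of assays detected, the differences were 5.07 points for Cxcl12 Mm00457276_m1, which stood at 8.28 unweighted, 8.77 for Cxcr4, -1.28 for Cxcr7 and 1.52 for Dppiv. Among cells with at least 24 assays Cxcr7 stood at -9.07 points and Dppiv at -9.16, so the sign of both turned there, and Cxcl12 Mm00457276_m1 at 5.48. With detection set at a Ct below 25 the Cxcr4 difference was 7.07 points.

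**Figure D5:**
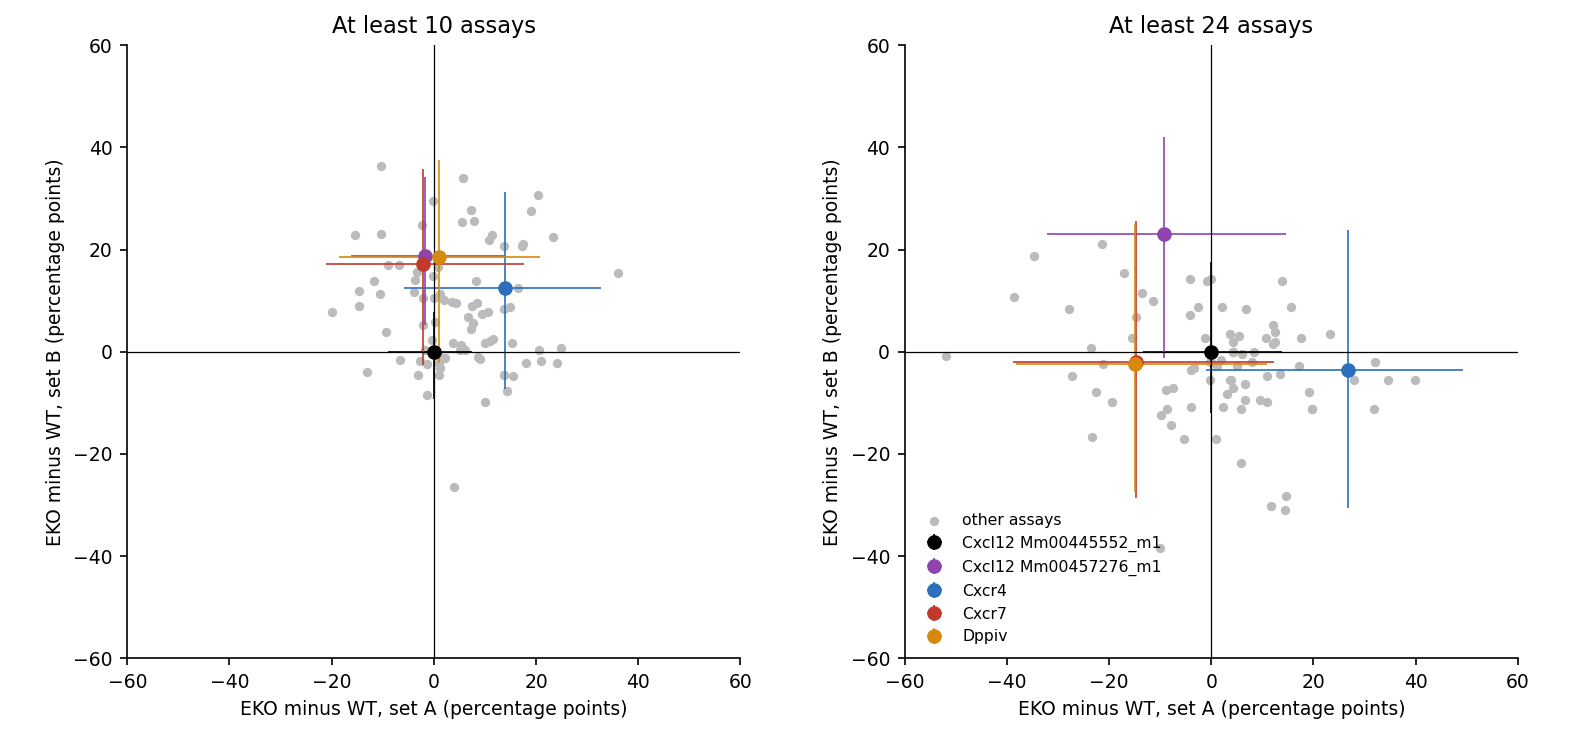
Difference in the share of detecting cells, EKO minus WT in percentage points, in set A (x axis) against set B (y axis), for cells with at least 10 (left) or 24 (right) assays, with the 5 member assays in colour, their 95% intervals as bars and the other assays in grey. Cxcr4 lies at 13.9 and 12.4 points on the left and at 26.7 and -3.57 on the right.

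Within the classes the receptors and Dppiv gave differences whose intervals included 0. In collagen-high cells Cxcr7 was found in 20 of 21 from EKO and 24 of 25 from WT (-0.76 points, -18.97 to 15.3), and Dppiv in 14 of 21 and 17 of 25 (-1.33 points, -27.3 to 24.05). In Ptprc cells Cxcr4 differed by 12.7 points (-10.1 to 33.8) and Dppiv by 15.6 (-7.21 to 36.3), both higher in EKO in each set. The yield of these Ptprc cells differed too, with a median of 30.5 assays in EKO and 21 in WT. Among those with at least 24 assays (medians 33.5 and 36.5) Cxcr4 was found in 19 of 28 from EKO (67.9%, 47.6 to 84.1%) and 10 of 14 from WT (71.4%, 41.9 to 91.6%), and Dppiv in 19 of 28 (67.9%, 47.6 to 84.1%) and 12 of 14 (85.7%, 57.2 to 98.2%). The differences there were -3.57 points for Cxcr4 and -17.9 for Dppiv, so both turned sign, the intervals of the shares overlapped, and Dppiv was lower in EKO in each set. The classes themselves made up 27.3% (collagen-high) and 46.8% (Ptprc) of EKO cells and 26.9% and 37.6% of WT cells. Their collagen-high difference was -15.4 points (set A) and 16.8 (set B), and the set differences of Cxcl12 Mm00457276_m1 and Cxcr7 ran the same way.

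Of the member assays only Cxcl12 Mm00457276_m1 had a share difference inside a class whose interval left out 0. How many of the other assays on the panel did so in that class was not counted, so this is not shown to be particular to Cxcl12. Among collagen-high cells Mm00457276_m1 was found in 13 of 21 from EKO (61.9%, 38.4 to 81.9%) and 8 of 25 of the WT ones (32%, 14.95 to 53.5%). They differed by 29.9 points (1.17 to 52.7), with 27.7 in set A (5 of 7 and 7 of 16) and 46.03 in set B (8 of 14 and 1 of 9). In the same cells Mm00445552_m1 had a median Ct of 15.1 ± 1.76 (SD, 21 cells, 12.4 to 18.6) in EKO and 16.2 ± 1.65 (25 cells, 13.2 to 19.2) in WT. That is -1.10 cycles, with -0.98 (set A) and -1.04 (set B), and the ranges overlapped over most of their length. Pooled over the sets, an earlier Ct in EKO was not particular to Cxcl12 in this class. Cxcr7 differed by -1.44 cycles and Cxcr4, whose Ct depended on the set, by -2.98, while Dppiv differed by 0.96. In set A, however, both receptors were later in EKO. The Cxcr7 median there was 15.1 in EKO and 14.8 in WT. The EKO Cxcr4 values there were 28.03 and 29.2, beside a WT median of 26.3. Neither receptor was thus earlier in EKO in both sets, as Mm00445552_m1 was. Median yields over both sets were 53 assays in EKO and 51 in WT. In set A they were 57 and 51, and in set B 52.5 and 52. The class was looked at after a whole-population value was known, and with 7 EKO cells in set A and 9 WT cells in set B the values rest on few cells. Because the sort kept donor-labelled cells, Cxcl12 in them does not check the deletion in the recipient.

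Levels over all 170 cells were compared for assays detected in 10 or more cells of each genotype within each set. The rule was a pooled difference of at least 1 cycle with the same sign in both sets. Of 47 such assays 38.3% were earlier in EKO by that rule and 8.51% later. Cxcl12 Mm00445552_m1 had 17.7 in EKO and 17.9 in WT. Cxcr4 had 0.74 cycles (set A) and -1.83 (set B), and Cxcr7 0.54 and -0.47, so that neither held its sign.

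Dppiv was the member assay that met the rule, with a later Ct in EKO. Its median was 19.9 ± 1.39 (SD, 33 cells, 16.8 to 22.2) in EKO and 18.2 ± 2.39 (31 cells, 13.97 to 25.3) in WT. The difference was 1.68 cycles, with 1.47 (set A) and 2.07 (set B), within the spread of the cells, and the WT range enclosed the EKO range. With each cell's median Ct subtracted it was 0.98 cycles, just under the 1 cycle of the rule. Without that subtraction, the difference in collagen-high cells was 0.41 cycles (set A) and 3.08 (set B), and in Ptprc cells 0.08 and 2.43. Inside a class the later Ct lay mainly in set B.

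Of 22 genes of signalling, release and homing around Cxcl12 that were listed beside the members, 17 are on the panel. Between recipients 7 of the 17 were higher in EKO by the 10-point rule and 0 lower, where 20.8% and 0% of all assays were, with a list median of 6.51 points beside 5.70 over all assays. Among the largest differences were those of Pik3r1, a regulatory subunit of phosphoinositide 3-kinase (25.4 points), the adhesion molecules Icam1 (23.2) and Vcam1 (16.6), and Cd34 (14.5). At 24 assays 1 was higher (Icam1, 10.7 points) and 2 were lower, the integrin Itga5 (-21.5) and the chemokine Ccl2 (-13.8), beside 4.17% and 11.5% of all assays, with a list median of -1.48 beside -0.07. Between classes 9 of the 17 were past 25 points in collagen-high cells and 0 in Ptprc cells, beside 44.7% and 0% of all assays, with a list median of 27.8 points beside 15.4. At 24 assays 6 of 17 were past 25 points in collagen-high cells (Ccl2, Cd34, Itga5, Itgb3, Vcam1 and Vegfa) and 1, the stem cell factor receptor Kit, in Ptprc cells. These counts are close to the shares over all assays, 34% and 6.38%, and the list median was 4.76 points beside 6.73. Kit was found in 50% of those Ptprc cells and 8.70% of collagen-high cells, the same direction as Cxcr4.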

How the data were processed

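The authors deposited 1 table of 96 TaqMan assays by 192 cells, and per the labels' protocols lineage-negative, GFP-positive wound cells were measured. The unit is not named. The deposited values, read here as raw Ct, lie between 4.49 and 37.9 in 5580 of 18432 reactions and at exactly 40, taken as not detected, in all others. Not given in the sources used here were software, threshold and preamplification. The labels speak of chips, and the letter of each title was read as the set. No column of values was left out.

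Members, classes, gene lists, size rules and alternatives were chosen with earlier results of these data known. Names were matched to a RefSeq table (GRCm38.p6): Cxcr7 matched Ackr3 as a synonym and Dppiv matched none. Cells with at least 10 assays were kept. Named genes were the members, the class and reference genes, the 3 assays of highest phi (or rho) with each member, and up to 4 of the pathway list by share difference; 1 gene is not reported here. Functions were tested on simulated data. With a detected count of 0, 3 counts set the limit. Depth is the number of assays per cell (4 to 70, median 23), and the number of cells limits precision. Python 3.11.15, NumPy 2.4.6, pandas 2.3.3, SciPy 1.17.1 and statsmodels 0.14.6 were used. Sequences of the assays are not printed here.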

Additional observations from a re-analysis of the deposited data

Results flagged for a closer look

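The 22 cells that enter no share, because they detected fewer than 10 assays, gave a signal in Cxcl12 Mm00445552_m1 in 100% of cases, at a median Ct of 17.8, while Cxcr4, Cxcr7 and Dppiv were detected in 0 of them, which allows up to 13.6%.

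Other results drew attention because EKO and WT cells differed one way in set A and the other way in set B, and none of these differences between sets was tested. The share of Cxcl12 Mm00457276_m1 differed by -1.76 points (set A) and 18.8 (set B). That of Cxcr7 differed by -2.08 and 17.3 points. The median Ct of Cxcr4 differed by 0.74 cycles (set A) and -1.83 (set B), and that of Cxcr7 by 0.54 and -0.47. Beside these, the collagen-high share of cells differed by -15.4 points (set A) and 16.8 (set B), and its part in the shares was not tested.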

How the results depend on the processing

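Under other settings 168 values stayed within the interval of the value reported or, for Ct, within 1 SD of it, and 24 did not. Of these 24 the sign was opposite in 16, and of the 168 in 11. The settings tried were detection below Ct 35, 30 or 25, all cells, 24 assays, each set alone, weights over terciles of yield, other Col1a1 limits (14 and 18), cells of both classes left out, and, for Ct, each cell's own median, Actb with B2m, or means. Each class alone, Ptprc cells with 24 assays and 36 assays were chosen after seeing the data. EKO minus WT, Cxcr7 went to -9.07 and Dppiv to -9.16 points at 24 assays, and Cxcl12 Mm00457276_m1 to 29.9 in collagen-high cells. In Ptprc cells with 24 assays Cxcr4 reversed to -3.57 and Dppiv went to -17.9. Collagen-high minus Ptprc, leaving out cells of both classes gave 60 points for Cxcl12 Mm00457276_m1, -42.6 for Cxcr4 and -5.07 for Dppiv. There Cxcr4 stood at -38.6 (24 assays) and -53.8 (36 assays), and Dppiv at -6.42 and -11.6. At 24 assays co-detection with Cxcl12 Mm00457276_m1 went to -18.02 points for Cxcr4 and 49.3 for Cxcr7 and reversed to -5.66 for Dppiv. Cxcr7 with Cxcr4 went to -36.2, Dppiv with Cxcr4 to 21.8 and Dppiv with Cxcr7 to -24.9. In collagen-high cells co-detection with Cxcl12 Mm00457276_m1 reversed to -0.76 for Cxcr7 and -10.1 for Dppiv, and Cxcr7 with Cxcr4 stood at -14.3, Dppiv with Cxcr4 at 16.1 and Dppiv with Cxcr7 at -34.1. In Ptprc cells Dppiv with Cxcr7 stood at -31.03. The 24 assay setting holds 42 of the 71 Ptprc cells and 7 of the 53 of neither class, that of 36 assays 19 Ptprc cells, and both hold all 46 collagen-high cells. The cause of each change was not tested. With set medians as far apart as those of Cxcr4, 1 SD is a wide band, and a Ct that stayed within it is not thereby stable. No paired analysis was possible because cell numbers follow accession order within a genotype and no result comes from a test. The number of cells in a class and set, from 7 upward, limits every value.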
